A study of Rattus norvegicus with 19 samples.

Results

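Splicing factor families were followed in rat nerve tumours induced by a carcinogen and in trigeminal nerve tagged as untreated. The members were the genes whose symbols begin with Hnrnp, Srsf, Snrp, Sf3a, Sf3b, Prpf, Lsm and a digit, U2af or Rbfox. Among 21791 probes on the array, 61 carried such a symbol, 1 probe for each gene. A probe was kept when its detection p-value against negative control beads was under 0.05 on at least 3 of the 19 arrays, which 13116 probes met. That left 58 members among 9330 genes with a detected probe: 17 Hnrnp, 10 Lsm, 9 Srsf, 9 Prpf, 4 Snrp, 3 Sf3b, 3 Rbfox, 2 Sf3a and 1 U2af gene. Lsm1, Prpf18 and Snrpc, detected on 2, 1 and 2 arrays, were not kept. On all 19 arrays 50 members were detected, and 8 on fewer.

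The 19 arrays comprised 12 with malignant tumours of the peripheral nerve sheath (MPNST), 1 with a microtumour and 6 with pooled nerve. Each MPNST array carried a single tumour of the trigeminal nerve from an adult rat given the carcinogen N-ethyl-N-nitrosourea (ENU), which alkylates DNA, on postnatal day 1 (80 µg per gram). By strain, 7 MPNST were from F1-hybrid animals, 2 (MPNST 11 and MPNST 12) from BDIV, 2 (MPNST 3 and MPNST 4) from BDIX and 1 (MPNST 6) from BDIX.BDIV-Mss4a, which is congenic. There were 6 males and 6 females among them. The microtumour came from an ENU-treated male of the congenic strain, so the fit had 1 array for that group and assumed that it varied like the others. Nerve pools came from animals 85 days old. Their tag reads untreated while their treatment text mentions ENU; the tag was followed, and each difference from nerve rests on it. There were 6 pools, with a pool per sex for the congenic strain (nerve 1 and nerve 2), for BDIX (nerve 3 and nerve 4) and for BDIV (nerve 5 and nerve 6). The spread between nerve arrays is therefore a spread between pools, and F1 hybrids had no nerve pool.

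Splicing removes introns through the spliceosome, an assembly of small nuclear ribonucleoproteins. The Snrp genes encode Sm proteins and specific proteins of those particles, the Lsm genes encode the Sm-like proteins that ring the U6 RNA or act in mRNA decay, and the Sf3a and Sf3b genes encode the U2 particle proteins that hold the branch site. Prpf genes encode pre-mRNA processing factors found at many steps of the cycle. SR proteins (Srsf) and hnRNP proteins bind the transcript and shift the choice of exons, and Rbfox proteins do so through the motif GCAUG in nerve and muscle cells. One probe per member measures the amount of its transcript and does not tell splice forms apart.

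Some features of the arrays bear on every comparison. An array detected 44.1% to 54.1% of its probes. The 25th percentile of raw signal lay between 80.4 and 94.6 on the high-background arrays (9 MPNST, nerve 1 and nerve 2) and between 59.0 and 67.5 on the low-background arrays (3 MPNST, the microtumour and the other 4 nerve pools). Nerve 5 and nerve 6 lay closer together than any other pair of pools, with a median absolute difference of 0.03 on the log2 scale, against 0.06 to 0.13 for the other pairs. Skeletal muscle genes, a list of 12, stood 1.98 and 1.70 above the nerve mean in MPNST 2 and MPNST 10 and below it in the other 10 tumours, and for MPNST against nerve 0 of the 12 genes were higher and 1 lower. Markers of sensory neurons, whose axons make up the nerve, were lower in MPNST for 14 of 16 genes, with a mean log2 level of 7.57 to 9.29 in MPNST, 11.2 in the microtumour and 11.3 to 12.3 in nerve. Markers of myelinating Schwann cells were lower for 6 of 8 genes (Mag was detected in no MPNST), macrophage genes were higher for 7 of 11, endothelial genes lower for 4 of 7 and higher for 1, astrocyte and oligodendrocyte genes lower for 4 of 10, and all 16 genes of a proliferation list were higher. In bulk tissue, fewer cells of a type and less RNA per cell cannot be told apart.

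The first comparison set the 12 tumours against the 6 nerve pools, the tissue the tumours grow in. Of the 58 members, 24 rose (41.4%) and 4 fell (6.90%) in MPNST, at an adjusted p under 0.05 in limma's moderated test, where the Benjamini-Hochberg adjustment ran over every feature tested. Across all 13116 features 42.7% were called, 22.5% of them higher and 20.1% lower as shares of the features tested. The median difference, MPNST minus nerve, was 0.27 on the log2 scale over the members and 0.02 over all features, and it was above 0 for 48 of 58 members. A difference of at least 1 together with a call was seen for 8 higher members, against 5.09% of all features, and for 2 lower members, against 5.94%. In 9 members every tumour lay above every pool, which held for 7.62% of all features. All 16 proliferation genes moved in the direction of most members, and their part in the shift was not tested.

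The size of the general shift depended on how the arrays were scaled. With each array scaled to its median instead of quantile normalization, the median difference was 0.03 over the members and -0.01 over all features, and 10 members rose and 8 fell. Across all features that scaling gave 1506 higher and 3213 lower calls, a share higher of 31.9%, against 52.8% with quantile normalization. All 24 members called higher kept a positive difference under it, 10 of them past the threshold, and all 4 called lower remained called. Within the high-background arrays 20 members rose and 1 fell, and within the low-background arrays 11 rose and 1 fell. The first fit held 9 tumours and 2 pools and the second 3 tumours and 4 pools, so the counts cannot be compared. Shares over all features are not given for these fits. All 28 called members had the same direction in both ranges.

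**Figure D1:**
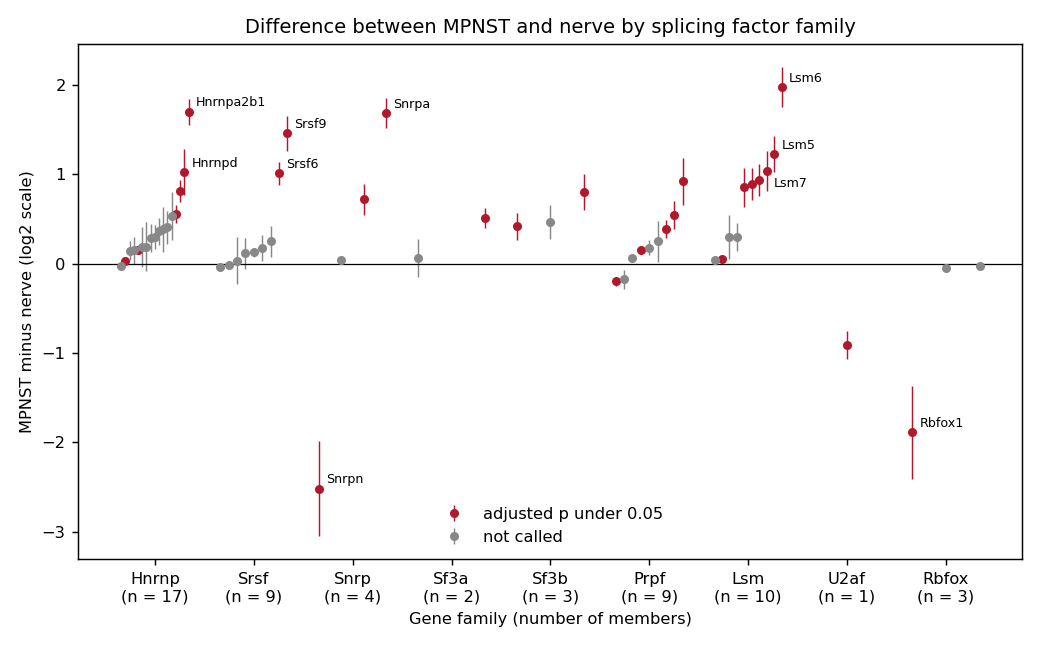
Difference between MPNST and nerve for each of the 58 members (points, MPNST minus nerve on the log2 scale; bars, standard error; n = 12 MPNST and 6 nerve pools), arranged by family. Lsm, Hnrnp, Srsf and Snrp genes supply the members above 1, and Snrpn (-2.52) and Rbfox1 (-1.89) lie far below the rest.

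Among the 4 Snrp genes, which encode proteins of the spliceosome's particles, 2 rose, 1 fell and Snrpd1, an Sm core gene near background, was not called (0.04). Of all features 22.5% rose and 20.1% fell. Snrpa encodes a specific protein of the U1 particle, which recognises the start of the intron. Its log2 level ran from 10.81 to 12.10 in MPNST (median 11.79), was 10.46 in the microtumour and ran from 9.59 to 10.17 in nerve (median 9.97). Every tumour lay above every pool, and MPNST were 3.22-fold higher (1.69 ± 0.17 on the log2 scale, SE, adjusted p = 5.05e-07, limma). Snrpb2, the related U2 particle protein, averaged 10.42 ± 0.39 in MPNST and 9.70 ± 0.28 in nerve (SD, n = 12 and 6) and rose 1.65-fold (0.72, adjusted p = 0.0027, limma). The Snrpb2 call was lost with median scaling (0.39, adjusted p = 0.314, limma).

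Snrpn went the other way. It encodes SmN, an Sm protein abundant in neurons that takes the place of the common SmB protein, and in human and mouse it is an imprinted gene expressed from the paternal copy. From MPNST 1 to MPNST 12 its log2 levels were 12, 10.39, 12.04, 11.69, 12.10, 11.96, 11.67, 10.75, 10.82, 7.60, 11.55 and 10.52. The microtumour had 13.14, and nerve 1 to nerve 6 had 13.43, 13.14, 13.18, 13.31, 14.29 and 14.29. Every tumour lay below every pool, MPNST 10 stood far below the other tumours, and the BDIV pools were the highest. The fall was 5.72-fold (-2.52 ± 0.53, SE, adjusted p = 0.00099, limma), and Snrpn was the 1 member whose tumours all lay under the nerve range, against 7.96% of all features. Sensory neuron markers fell in the same arrays, and their part in the Snrpn difference was not tested, nor was signal that a close copy such as Snrpb could share with its probe.

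Of the 10 Lsm genes 7 rose and 0 fell, where 22.5% and 20.1% of all features did, with a median difference of 0.87. The 7 include Lsm11, which was detected on 6 of 12 MPNST and 0 of 6 nerve arrays and so was kept only through the tumours. Lsm3, Lsm4, Lsm5, Lsm6, Lsm7 and Lsm8 belong to the ring on U6 RNA, and 5 of these 6 rose, Lsm4 (0.30, adjusted p = 0.345, limma) being the exception. Lsm6 had log2 levels of 10.36 to 11.41 in MPNST (median 10.68), 10.51 in the microtumour and 7.75 to 9.55 in nerve (median 8.77). The tumour values were narrow and stood wholly above the wider nerve values, a 3.94-fold rise (1.98 ± 0.22, SE, adjusted p = 1.9e-06, limma). Lsm5 ran from 10.62 to 12.41 in MPNST (median 11.50) and from 9.48 to 10.60 in nerve (median 10.40), with 10.28 in the microtumour. The groups did not overlap, although the lowest tumour lay just above the highest pool, and the rise was 2.34-fold (1.23 ± 0.20, SE, adjusted p = 0.00011, limma). Lsm7 averaged 10.55 ± 0.30 in MPNST and 9.51 ± 0.69 in nerve (SD) and rose 2.05-fold. The Lsm7 call was lost with median scaling (adjusted p = 0.0614, limma) and within the low-background arrays (0.176). It was also lost with a replicate block (0.0908), which kept only MPNST 1 to MPNST 6 and the pools. Lsm5 lost its call within the low-background arrays (0.116).

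Lsm3 rose 1.92-fold, Lsm12 1.85-fold and Lsm8 1.81-fold, with adjusted p of 0.00046, 0.00067 and 0.0038 (limma). With median scaling Lsm3 kept its call, while those of Lsm12 and Lsm8 were lost (adjusted p of 0.0537 and 0.210, limma). Lsm10 (0.30) was not called. Lsm11, a U7 particle gene for histone mRNA ends, was called at a difference of 0.05, with detection on 6 of 12 MPNST and 0 of 6 nerve arrays, so no fold is given. Lsm14a, a component of cytoplasmic P-bodies, had the smallest difference of the family (0.04), was near background in both groups and was not called. Nerve 4 was the lowest pool for 7 of the 10 Lsm members, against 18.1% of all features, and without that pool 7 members were still called higher with a median difference of 0.77.

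**Figure D2:**
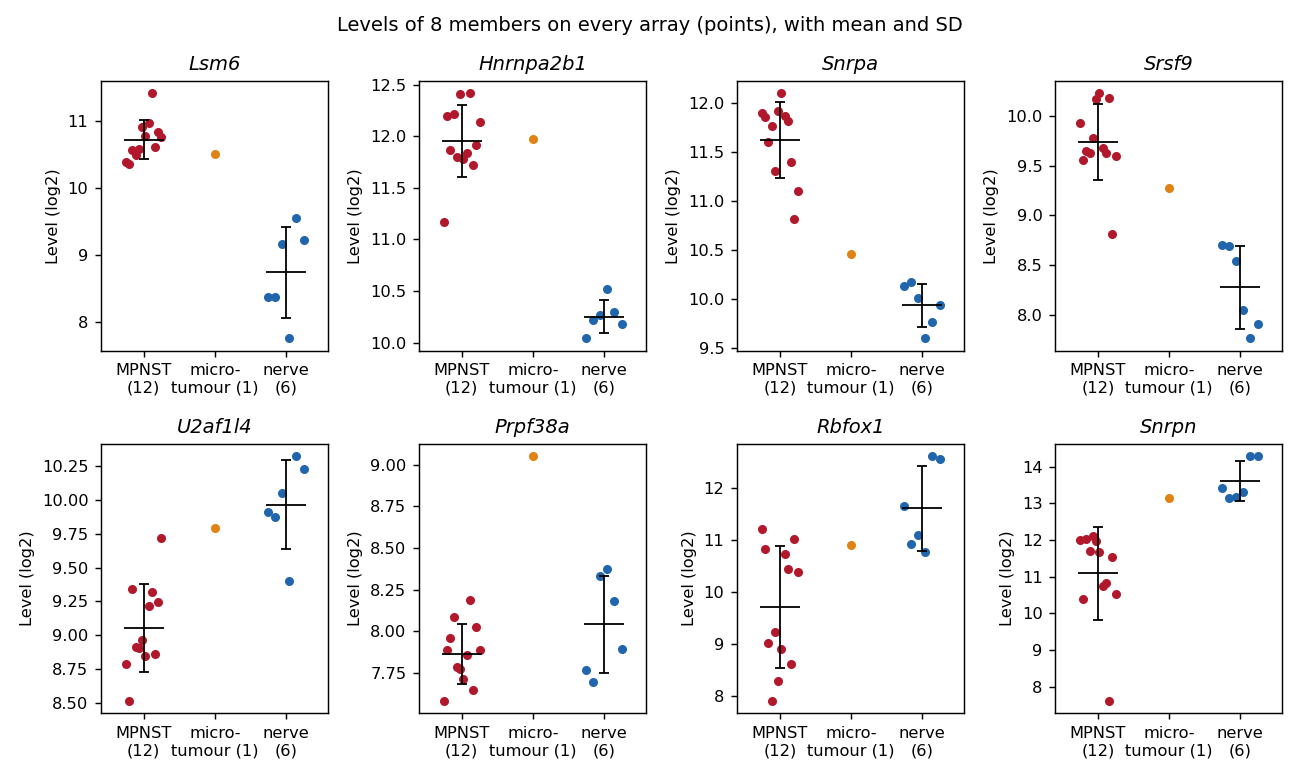
Log2 level of 8 members on every array (red, MPNST; orange, microtumour; blue, nerve; horizontal line and bars, mean and SD). Lsm6, Hnrnpa2b1, Snrpa and Srsf9 separate the tumours above the pools, Snrpn separates them below, and Prpf38a is highest in the microtumour (9.05).

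Promoters of Lsm6 and Hnrnpa2b1, which rose most, and of Snrpn and Rbfox1, which fell most, are given to show the sequence next to these start sites. Srsf9 was added because it rose most among the members called higher with an NRF1 site inside the printed stretch. Its site there follows from that choice. Each is the 150 bases before the annotated start, 5′ to 3′ on the strand of the gene, from RefSeq on GRCr8. The positions are chr19:46002442-46002591 on the plus strand for Lsm6, and on the minus strand chr4:81875887-81876036 for Hnrnpa2b1, chr12:46945148-46945297 for Srsf9, chr1:120338920-120339069 for Snrpn and chr10:8999392-8999541 for Rbfox1. Capitals mark a CCAAT box, read on either strand, or an NRF1 site.
Lsm6: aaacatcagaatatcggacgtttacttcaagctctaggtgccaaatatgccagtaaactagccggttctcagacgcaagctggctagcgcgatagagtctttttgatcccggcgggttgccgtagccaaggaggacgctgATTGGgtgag
Hnrnpa2b1: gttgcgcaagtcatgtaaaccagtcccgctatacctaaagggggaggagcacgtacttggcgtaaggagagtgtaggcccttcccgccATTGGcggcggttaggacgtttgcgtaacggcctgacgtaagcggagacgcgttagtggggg
Srsf9: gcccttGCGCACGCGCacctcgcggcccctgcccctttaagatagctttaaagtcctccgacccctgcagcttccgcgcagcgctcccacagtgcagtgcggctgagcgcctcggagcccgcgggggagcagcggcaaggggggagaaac
Snrpn: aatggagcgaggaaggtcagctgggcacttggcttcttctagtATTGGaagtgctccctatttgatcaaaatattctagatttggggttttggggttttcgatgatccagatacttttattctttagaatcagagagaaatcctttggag
Rbfox1: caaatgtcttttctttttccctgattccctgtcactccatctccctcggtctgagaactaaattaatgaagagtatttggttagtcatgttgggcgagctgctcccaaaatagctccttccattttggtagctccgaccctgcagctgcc
The Srsf9 stretch holds an NRF1 site, those of Lsm6, Hnrnpa2b1 and Snrpn hold a CCAAT box, and the Rbfox1 stretch holds neither.

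The motifs were searched on both strands in the 250 bases before the start, in the 54 members with a promoter entry. The NRF1 motif, GCGC followed by any 2 bases and GCGC, bound by a regulator of respiratory and housekeeping genes, was found in 15 members (27.78%), against 10.51% of the 7716 promoters of tested genes and 5.303% of all 27457 promoters. Among the members called higher it was found in 5 of 23 (Srsf9, Lsm7, Srsf6, Sf3b3 and Snrpb2), and among those called lower in 0 of 4. The CCAAT box was found in 42.59% of members and 35.03% of tested promoters, and the GC box GGGCGG in 59.26% and 56.3%. The E-box CACGTG was found in 11.11% and 7.841%, the ETS site CCGGAAGT in 5.556% and 6.402%, and the E2F site TTTGGCGC in 0 members and 0.6998% of tested promoters. A GC box can lie within a longer GC-rich stretch, and overlaps between the motifs were not removed. A match describes the letters in the window and no binding was measured.

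Among the hnRNP genes 6 of 17 rose and 0 fell, where 22.5% and 20.1% of all features did, with a median difference of 0.30. Hnrnpa2b1 encodes hnRNP A2 and B1, which act in splicing and in the transport of mRNA. Its log2 level ran from 11.17 to 12.42 in MPNST (median 11.89), was 11.97 in the microtumour and ran from 10.04 to 10.52 in nerve (median 10.24). The gap between the lowest tumour and the highest pool was wider than the whole nerve range, and the rise was 3.26-fold (1.70 ± 0.15, SE, adjusted p = 9.97e-08, limma). Hnrnpd, an AU-rich element binding protein linked to mRNA decay, ran from 8.79 to 10.67 in MPNST (median 10.12) and from 8.55 to 9.51 in nerve (median 8.90). It rose 2.04-fold (adjusted p = 0.0033, limma), with 3 of 12 tumours inside the nerve range. Its call was lost with median scaling (0.67, adjusted p = 0.113, limma) and within the high- and low-background arrays (adjusted p of 0.206 and 0.131). It was also lost with a replicate block (adjusted p = 0.0686), which left out MPNST 7 to MPNST 12.

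Hnrnpul2 and Hnrnpul1, relatives of the nuclear matrix protein Hnrnpu, rose 1.75-fold and 1.47-fold, and in both every tumour lay above every pool. Hnrnpa1 (0.15) and Hnrnpr (0.03) passed the test at levels near background. The abundant Hnrnpf, Hnrnpm, Hnrnpu, Hnrnpa3, Hnrnpl and Hnrnph1, with mean levels above 10 in both groups, differed by 0.19 to 0.53 and were not called. For all 6 of them at least 9 of 12 tumours lay inside the nerve range. Hnrnpab, at 7.36 in MPNST and 7.39 in nerve, had the lowest difference of the family (-0.03) and was not called. Nerve 4 was the highest pool for 11 of the 17 Hnrnp members, against 22.5% of all features.

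Of the 9 SR protein genes 2 rose and 0 fell, and the median difference was 0.13. As a count this is close to the 22.5% of all features that rose. Srsf9 ran from 8.81 to 10.23 in MPNST (median 9.66), was 9.28 in the microtumour and ran from 7.76 to 8.70 in nerve (median 8.30). The groups did not overlap, MPNST 11 was the lowest tumour, and the rise was 2.75-fold (1.46 ± 0.19, SE, adjusted p = 1.13e-05, limma). Srsf6 ran from 11.78 to 12.64 in MPNST (median 12.12), was 11.58 in the microtumour and ran from 10.68 to 11.49 in nerve (median 11.21). It too separated the groups, at 2.02-fold (adjusted p = 8.28e-06, limma). The other 7 genes differed by -0.03 to 0.25 and were not called. Among them Srsf2 had the widest tumour spread (SD 0.55), with 9.30 in MPNST 11 against a median of 7.69. Srsf12, the lowest of the family (-0.03), was detected on 1 of 12 MPNST and 5 of 6 nerve arrays.

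In the U2 branch site complexes, Sf3a1 rose 1.43-fold (0.51, adjusted p = 0.0011, limma), with 1 of 12 tumours inside the nerve range, and Sf3a3 did not pass (0.07, adjusted p = 0.814). Sf3b3 averaged 10.74 ± 0.29 in MPNST and 9.94 ± 0.60 in nerve (SD) and rose 1.74-fold (adjusted p = 0.0036, limma), although 7 of 12 tumours lay inside the wide nerve range. Sf3b2 rose 1.34-fold (0.42, adjusted p = 0.032, limma), a call lost when nerve 1, nerve 5 or nerve 6 was left out (adjusted p of 0.064, 0.088 and 0.096). It was also lost in 10 of 15 other settings, among them median scaling (0.04, adjusted p = 0.926) and the authors' values (0.28, adjusted p = 0.226). Sf3b3 lost its call in 5 of those 15 settings and Sf3a1 in 2, median scaling and the low-background arrays being among them for both. Sf3b1, the largest subunit of its complex, stood at 9.42 ± 0.30 in MPNST and 8.95 ± 0.54 in nerve and was not called (0.47, adjusted p = 0.057). The single U2af member, U2af1l4, a relative of the small subunit that reads the 3′ splice site, fell. Its level was 8.51 to 9.72 in MPNST (median 8.94), 9.79 in the microtumour and 9.40 to 10.32 in nerve (median 9.98). It was 1.88-fold lower (-0.91 ± 0.16, SE, adjusted p = 0.00018, limma), with 1 tumour, MPNST 12, inside the nerve range, and it did not pass within the low-background arrays (-0.57, adjusted p = 0.168).

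Of 9 Prpf genes 4 rose and 1 fell, where 22.5% and 20.1% of all features did. Prpf19, a ubiquitin ligase at the centre of the complex that activates the spliceosome, ran from 9.78 to 10.86 in MPNST (median 10.41) and from 8.46 to 10.49 in nerve (median 9.74). It rose 1.89-fold (0.92 ± 0.26, SE, adjusted p = 0.0086, limma), but 7 of 12 tumours lay inside the nerve range, which the BDIX pools (8.47 and 8.46) stretched downward. The call was lost with median scaling (0.61, adjusted p = 0.133, limma), with covariates for sex and strain (0.058) and within the low-background arrays (0.394). It was also lost over strains with nerve pools (0.163) and with a replicate block (0.064), which left out MPNST 7 to MPNST 12. Prpf4b, a kinase, rose 1.46-fold, Prpf38b 1.31-fold and Prpf8, the core protein of the U5 particle and near background here, 1.11-fold. The calls of Prpf4b, Prpf38b and Prpf8 were also lost with median scaling (adjusted p of 0.358, 0.296 and 0.950, limma). Prpf8 did not pass with the authors' values either (adjusted p = 0.474, limma). Prpf40b, a U1-associated protein, fell 1.14-fold (-0.20, adjusted p = 0.0038, limma) at levels near background (7.55 ± 0.10 in MPNST and 7.75 ± 0.10 in nerve, SD), and it passed within neither background range. Prpf4, Prpf3, Prpf31 and Prpf38a did not pass and differed by -0.18 to 0.25.

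**Figure D3:**
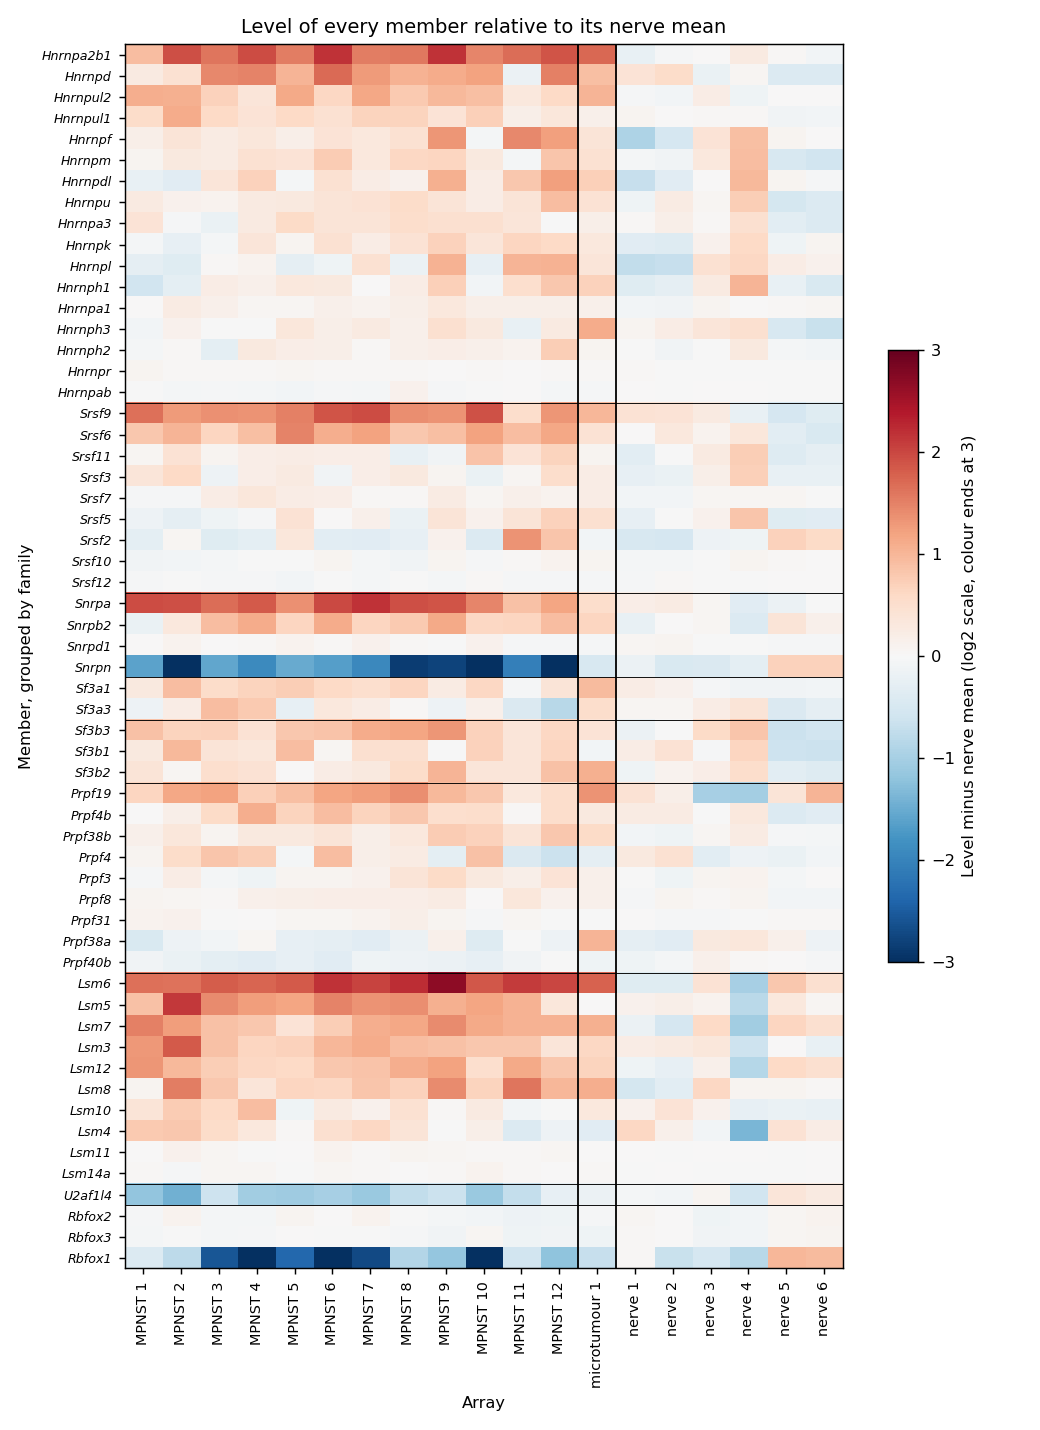
Level of every member on every array relative to the mean of the 6 nerve pools (colour, log2 scale, red higher and blue lower, ending at 3), with MPNST left, the microtumour and nerve right, and members grouped by family. Hnrnpa2b1, Srsf9, Snrpa and Lsm6 are red across the tumours, Snrpn is blue across them, and Rbfox1 is strongly blue in some tumours and pale in others.

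Rbfox1, which encodes a neuronal and muscle splicing regulator, was uneven among the tumours. From MPNST 1 to MPNST 12 its log2 levels were 11.20, 10.82, 9.03, 7.91, 9.24, 8.29, 8.90, 10.73, 10.44, 8.62, 11.02 and 10.39. The microtumour had 10.90, and nerve 1 to nerve 6 had 11.65, 10.92, 11.10, 10.77, 12.61 and 12.56. In 3 of 12 tumours the level lay inside the nerve range, and in the other 9 below it. MPNST were 3.69-fold lower (-1.89 ± 0.52, SE, adjusted p = 0.0072, limma). The difference was -1.87 within the high-background arrays and -1.14 within the low-background arrays, with adjusted p of 0.135 and 0.194, and -1.40 without both BDIV pools (adjusted p = 0.0809). Rbfox2 averaged 7.47 ± 0.09 in MPNST and 7.50 ± 0.09 in nerve (SD), and Rbfox3 averaged 7.35 ± 0.05 and 7.39 ± 0.08. Both lay near background and neither passed the test (-0.02 and -0.04), and Rbfox3, the neuronal nuclear antigen NeuN, was detected on 11 of 12 MPNST and 6 of 6 nerve arrays.

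Tumours differed among themselves more in Rbfox1 and Snrpn than in any other member. The SD over the 12 MPNST was 1.17 for Rbfox1 and 1.26 for Snrpn, against a median of 0.29 over the members and 0.14 over all features. The features whose levels tracked Rbfox1 most closely over the 19 arrays, of 9349 named ones, were Eno2 (Pearson r 0.877), a neuronal enolase, Pctp (0.871), Atp6v1e1 (0.868), Cadps (0.866), which acts in vesicle release, and Wdr54 (0.865). The arrays share the difference between groups, and within the 12 MPNST these values were 0.784, 0.725, 0.764, 0.721 and 0.828. The 12 MPNST were among the 19 arrays used to pick these features, so the values within them are no separate check. Mean levels of the 16 sensory neuron genes were set against both members over the 12 MPNST, in a family of 3 relations with 100000 resamples. Rbfox1 gave r = -0.12 (permutation p = 0.70, two-sided) and rho = -0.12 (permutation p = 0.71). Snrpn gave r = 0.61 (permutation p = 0.0146, adjusted 0.0438) and rho = 0.59 (permutation p = 0.0491, adjusted 0.147). Without MPNST 9 and MPNST 10, farthest from the median of the list, r was 0.54, and over the 9 high-background tumours it was 0.73. The low range held 3 tumours, too few for a value. Between Rbfox1 and Snrpn r was 0.01 (permutation p = 0.98) and rho was -0.14 (permutation p = 0.67). Without MPNST 10 and MPNST 2, farthest from the Snrpn median, r was -0.46, so the value near 0 depended on those tumours.

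**Figure D4:**
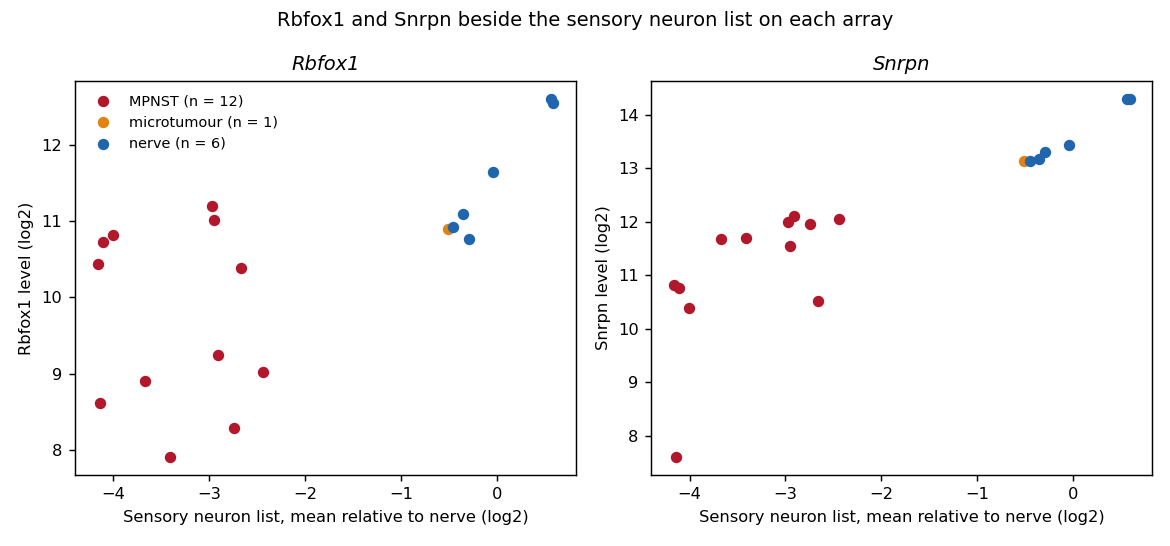
Log2 level of Rbfox1 (left) and Snrpn (right) against the mean of 16 sensory neuron genes relative to nerve, one point per array (12 MPNST, 1 microtumour, 6 nerve pools). Nerve pools and the microtumour lie at the right of both panels; among the tumours Rbfox1 spreads from 7.91 to 11.20 (r = -0.12), while Snrpn is lowest in MPNST 10 (7.60).

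Splicing genes outside these families were followed as a list. Of 93 such genes, 43 rose, 9 fell and 41 did not pass, where 22.5% of all features rose and 20.1% fell, with a median difference of 0.25. Ptbp1, the polypyrimidine tract binding repressor of neuronal exons, ran from 10.25 to 11.51 in MPNST (median 11.11) and from 8.14 to 10.04 in nerve (median 9.47). It had the largest rise of the list, 3.64-fold (1.87 ± 0.26, SE, adjusted p = 1.83e-05, limma), with every tumour above every pool. Isy1, a spliceosome component, rose 3.25-fold and Tial1, an RNA-binding protein of stress granules, 2.51-fold, also without overlap. Celf4 rose 2.31-fold (adjusted p = 0.039, limma), a call lost when MPNST 1, 8, 9 or 10 or nerve 1, 2, 3 or 4 was left out and in 11 of 15 other settings. Khdrbs3, a STAR family splicing regulator, was 1.86-fold lower, Syf2 1.50-fold, Clk4, a kinase of SR proteins, 1.48-fold and Celf6 1.33-fold. Of the 12 tumours 4, 8, 7 and 2 lay inside the nerve range for these genes. Celf6 lay near background (means of 7.28 in MPNST and 7.70 in nerve) and was detected on 4 of 12 MPNST and 6 of 6 nerve arrays. Syf2 lost its call without nerve 2, Clk4 without nerve 2 or nerve 4, and Celf6 without nerve 5 or nerve 6. Across the 15 other settings Khdrbs3 lost its call in 6 (adjusted p of 0.0832 to 0.264), Syf2 in 3, Clk4 in 4 and Celf6 in 7.

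The microtumour was next set against both groups. Against nerve 3 members rose and 0 fell, where 2.64% of all features were called, 1.62% higher and 1.01% lower. The rises were in Hnrnpa2b1 (11.97 in the microtumour, 10.25 ± 0.16 in nerve; 3.29-fold, adjusted p = 0.0062, limma), Prpf38a (9.05 and 8.04 ± 0.29; adjusted p = 0.027, limma) and Sf3a1 (8.73 and 7.78 ± 0.14; adjusted p = 0.040, limma). The Sf3a1 call was lost in 4 of 11 other settings (adjusted p of 0.0566 to 0.126) and in 8 of 18 fits without 1 array (MPNST 3, 6, 7, 8 or 10, or nerve 4, 5 or 6), and the Prpf38a call with the authors' values (adjusted p = 0.203). Against MPNST 1 member rose and 0 fell, where 2.54% of all features were called, 1.64% higher and 0.9% lower. This was Prpf38a, a factor of the spliceosome before its activation, with 9.05 in the microtumour and 7.58 to 8.19 in MPNST (1.19 on the log2 scale, adjusted p = 0.0069, limma). The microtumour thus lay above all 18 other arrays for Prpf38a, whose level in nerve reached 8.37. It also did so for Hnrnph3, which was not called (11.03, against at most 10.40 in MPNST and 10.39 in nerve). For Sf3a1 (8.73 against 8.71 in the highest MPNST) and Sf3b2 (10.12 against 10.08) it did so narrowly.

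Where the microtumour stood between the tissues was computed for the called members that differed by 1 or more, scaled with 0 for mean nerve and 1 for mean MPNST. Hnrnpa2b1 (1.01) and Lsm7 (1.02) stood at the MPNST mean, and Lsm6 (0.89), Hnrnpd (0.89) and Srsf9 (0.69) stood toward it. Srsf6 (0.42), Rbfox1 (0.37), Snrpa (0.31) and Snrpn (0.19) stood nearer to nerve. Lsm5 stood at the nerve mean, at 10.28 in both. These places rest on 1 array and carry no error of their own. In the same array the proliferation list stood 0.45 above the nerve mean, against 1.01 to 2.61 in MPNST, and the sensory neuron list 0.51 below it.

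The last comparison asked whether the difference between MPNST and nerve was the same in the parental strains, with 2 tumours and 2 pools of each of BDIV and BDIX. Both BDIX tumours lay on high-background arrays and the other 6 arrays of this contrast on low-background ones, so strain and background cannot be told apart for the tumours. The interaction, BDIV minus BDIX, was called for 6 members in the positive and 4 in the negative direction, where 11.9% of all features were called, 5.02% positive and 6.85% negative. Among the 28 members called for MPNST against nerve, 26 had the same direction in both strains, the exceptions being Prpf19 and Sf3b3. The arrays of both strains were among those used for these calls, so the shared direction is no separate check. The median interaction was 0.77 over the Hnrnp family, where 13 of 17 values were positive, and -0.59 over the Lsm family, where 2 of 10 were. Over all features it was 0.00, with 6673 of 13116 positive. Members of a family share the same arrays and are not replicates. Nerve 4, a BDIX pool, was the highest pool for 11 of 17 Hnrnp members and the lowest for 7 of 10 Lsm members, and its part in these medians was not tested.

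Prpf19 differed most. Its log2 levels were 9.78 and 9.99 in BDIV MPNST and 9.85 and 10.49 in BDIV nerve, against 10.69 and 10.18 in BDIX MPNST and 8.47 and 8.46 in BDIX nerve. The tumours were lower than their pools by 0.29 in BDIV on average and higher by 1.97 in BDIX (interaction -2.25 ± 0.37, SE, adjusted p = 0.0019, limma). The BDIX pools set this apart, since both lay below the other 4 pools and all tumours. Prpf4 (interaction -1.41), Sf3a3 (-0.83) and Rbfox3 (-0.22) had the same sign, with adjusted p of 0.040, 0.045 and 0.027 (limma). Over 8 fits that left out 1 array, Prpf4 and Rbfox3 lost the call in all 8 and Sf3a3 in 7. Rbfox3 also lies near background.

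Hnrnpf had the largest positive interaction, 1.65 ± 0.49 (SE, adjusted p = 0.047, limma). Its levels were 13.45 and 13.25 in BDIV MPNST and 12.10 and 12.03 in BDIV nerve, against 12.27 and 12.36 in BDIX MPNST and 12.44 and 12.92 in BDIX nerve. Srsf5 (1.46), Hnrnpu (1.35), Sf3b3 (1.23) and Hnrnph3 (1.03) ran the same way, with adjusted p of 0.024, 0.016, 0.017 and 0.018 (limma), and Prpf40b (0.36) was the sixth. For Sf3b3 the BDIV tumours (10.31 and 10.55) stood above the BDIV pools (9.31 and 9.37), whereas BDIX tumours (10.64 and 10.37) and pools (10.50 and 10.78) overlapped. Of these members other than Prpf40b, Prpf19 alone passed in all 9 other settings and in all 8 fits that left out 1 array. Hnrnpf lost its call in 7 of those 8 fits, Srsf5 in 6, Hnrnph3 in 5, and Hnrnpu and Sf3b3 in 4 each. With nerve 5 and nerve 6 averaged into 1 sample, or with background as a block, 2 members were called.

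**Figure D5:**
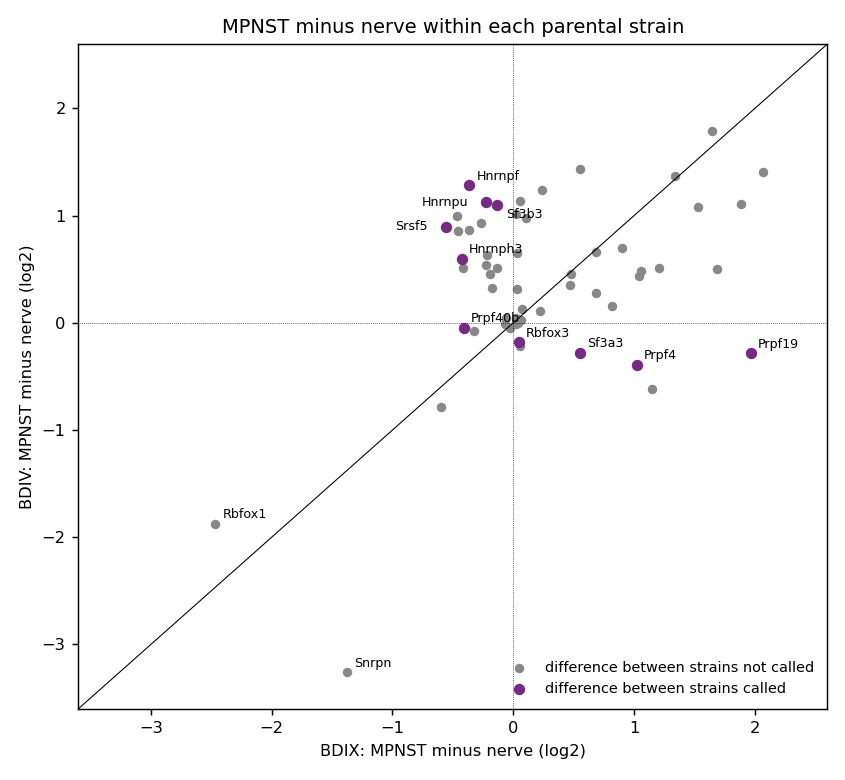
Difference between MPNST and nerve in BDIV (vertical axis) against that in BDIX (horizontal axis), log2 scale, for the 58 members, with the line of equality; purple points are the 10 members with a called difference between strains. Prpf19 lies at the far right below 0, Hnrnpf at the upper left, and Snrpn and Rbfox1 are below 0 in both strains.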

How the data were processed

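The authors read the arrays with BeadStudio 3.0, per the submitters' processing notes. Per the file headers, the deposited raw table gives for each probe an average bead signal, an intensity that is not normalized, and a detection p-value. A second deposited table of the authors holds background-subtracted and scaled intensity values. In it 17 of 19 columns matched their own raw column, and nerve 5 and nerve 6 matched each other's, so it served as an alternative. Genome builds are not given in the sources used here.

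Raw intensities were background corrected from the detection p-values, quantile normalized and put on the log2 scale with neqc of limma 3.58.1 (R 4.3.3, offset 16). The offset makes folds of dim probes smaller. A level under 8 in both groups is called near background (17 members). P-values measure the spread between these arrays, and the number of arrays limits the precision. The fit of 19 arrays had a coefficient each for MPNST, microtumour and nerve (16 residual degrees of freedom). The strain interaction gave BDIV and BDIX tumours and pools their own coefficients (11 residual degrees of freedom). The fit for MPNST against nerve was tested on simulated data, with values drawn independently for each array. The microtumour contrasts and the strain interaction were not tested in this way.

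Symbols came from the platform annotation (1 symbol for 13387 probes, none for 8404); 13354 matched RefSeq genes of GRCr8, and 4 symbols were updated. RefSeq lists 95 protein-coding genes that match the naming of the families.

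Named were the 3 Rbfox genes, the highest and lowest member of each family, every called member with a difference of at least 1, up to 5 called members each way for the microtumour and strain comparisons, and the 4 highest and 4 lowest called of the other splicing genes. Members named beyond that rule were chosen after their values were seen. The members and all gene lists were chosen with earlier results of these data known. Alternatives were another scaling, the authors' values, the offset, the detection filter, blocks, covariates, array weights and leaving arrays out.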

Additional observations from a re-analysis of the deposited data

Results flagged for a closer look

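Among the nerve pools, the Lsm5 value of nerve 4 (9.48) lay apart from the other 5 (10.33 to 10.60). The gap to its neighbour made up 0.761 of the range of the 6 pools, above Dixon's critical value for 6 samples. Of 58 members tested, 4 had an outlying pool by this measure, and chance gives about 1 in 20.

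For the difference between MPNST and nerve, the interaction, BDIV minus BDIX, was called for 9 members named by rule. Of all features 11.9% were called. The interaction on the log2 scale was 1.65 for Hnrnpf, 1.46 for Srsf5, 1.35 for Hnrnpu, 1.23 for Sf3b3 and 1.03 for Hnrnph3. It was -0.22 for Rbfox3, -0.83 for Sf3a3, -1.41 for Prpf4 and -2.25 for Prpf19. Each rests on 2 tumours and 2 pools per strain, and Rbfox3 lies near background. Both BDIX tumours lay on high-background arrays and the other arrays of this contrast on low-background ones. Strain and background therefore cannot be told apart for the tumours, and with background as a block 2 members were called.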

How the results depend on the processing

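For MPNST against nerve, the 24 higher and 4 lower members became 10 and 8 with median scaling. They became 20 and 1 within the high-background arrays and 11 and 1 within the low-background arrays. Each background range held fewer arrays, and shares over all features are not given for those fits. The replicate numbers did not pair tumours and pools: same-numbered deviations correlated at -0.30 to 0.21 over 6 pairs, and 1 of 6 tumours correlated best with its own number. With a replicate block, which kept only MPNST 1 to MPNST 6 and the 6 pools, 13 members were higher and 4 lower. The part of the omitted tumours in this change was not tested. Leaving out 1 array gave 21 to 30 higher and 4 to 5 lower. The authors' values kept 20 of the 24 higher calls and all 4 lower ones. After seeing the data, the fit was run without MPNST 2 and MPNST 10 (25 higher, 5 lower) and without both BDIV pools (18 higher, 3 lower). Over 726 values of 22 named members under these alternatives, 662 kept direction and side of the threshold, 41 lost the call, 13 gained one and 10 changed sign. Those 10 were uncalled differences. Sf3a3 (0.07) was -0.26 with median scaling, -0.13 with the background block, -0.0026 with nerve 5 and nerve 6 averaged, -0.44 within the low-background arrays and -0.11 without both BDIV pools, and it ran from -0.019 (without nerve 5) to 0.15 (without MPNST 12) over fits without 1 array, with -0.0096 without MPNST 3. Rbfox2 was 0.0053 with array weights, 0.0040 with the replicate block and 0.014 without both BDIV pools. Snrpn did not pass within the high-background arrays (-2.15, adjusted p = 0.152, limma). For the microtumour against nerve, the background block called 6 members in place of 3, and leaving out 1 array gave 2 to 5, the 5 without nerve 3. Against MPNST the 1 call became 3 with array weights, the background block or median scaling, and 2 with covariates for sex and strain, without both BDIV pools and without MPNST 11 (1 to 2 over single arrays left out). The 10 strain interactions became 4 with median scaling, 2 with the background block or with nerve 5 and nerve 6 averaged, 17 with array weights and 5 with the authors' values. Leaving out 1 array gave 2 to 12: 2 without MPNST 4, MPNST 12 or nerve 4, and 3 without MPNST 3, nerve 5 or nerve 6. The causes of these changes were not tested. Dim members limit what can be read, since 17 of 58 lie near background.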
